A study of Mus musculus with 48 samples.

Results

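The genes described here are 43 genes of DNA replication and S phase, a list of symbols chosen with earlier results of these data known. All 43 were found in the deposited count files, as 43 of 47643 gene identifiers. They were followed in organoids grown from submandibular salivary gland cells of C57BL/6 mice aged 8 to 12 weeks. The organoids were embedded in Matrigel and fed a medium that holds Wnt3a-conditioned and R-spondin1-conditioned medium, EGF and FGF2, and every control received the same medium. On culture day 5 they received 4, 7 or 15 Gy of protons (in the plateau of the beam), 4, 7 or 15 Gy of photons, or no radiation, and RNA was taken 2 or 6 days later. Protons and photons were given on different days, so each radiation type and each collection day has its own unirradiated control, and a difference between the radiation types cannot be told apart from a difference between those experiments. Each of the 16 groups holds organoids of 3 mice, which gives 48 libraries of 3′ end reads. A library is bulk RNA, so fewer cycling cells and less of a transcript in each cell cannot be told apart.

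A cell copies its DNA in S phase, after origins have been licensed in G1 by Cdc6, Cdt1 and the ring of Mcm2 to Mcm7 proteins that later becomes the replicative helicase. Cdc45, the GINS complex and Mcm10 then activate that helicase, and primase, the polymerases, the sliding clamp Pcna and its loaders copy both strands while ribonucleotide reductase and its partners supply nucleotides. Most of these genes are transcribed shortly before S phase under E2F transcription factors, which the retinoblastoma proteins hold back. After DNA damage, p53 raises Cdkn1a, an inhibitor of cyclin-dependent kinases that keeps the retinoblastoma proteins in their repressive state.

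Because E2F factors read short elements near the start of such genes, the upstream sequences of some of the genes that fell after 15 Gy of protons are shown first. RefSeq promoter windows (GRCm38.p6, 250 bases before to 50 after the gene start) were matched by symbol for 35 of the 43 genes, and those of Mcm4, Gins1, Gins2, Gins4, Pole, Rfc2, Tipin and Ccne2 are named only. The windows were searched on both strands for the 4 words TTTCCCGC, TTTGGCGC, TTTGCCGC and TTTCGCGC, whose matches can overlap each other. At least 1 word lay in 13 of the 35 windows (37.1%), against 704 of 27025 genes in the table (2.61%) and 429 of 8507 genes that had a window and were tested in the proton day 6 libraries (5.04%). The word CCAAT lay in 19 of the 35 windows (54.3%), against 42.9% of those tested genes. A match is a description of letters and not a binding site, and a window without one says nothing of E2F binding there. The 190 bases that end just before the gene start are printed 5′ to 3′ on the gene's strand for 5 genes called lower after 15 Gy of protons at day 6 that have a word upstream, and for Pcna, also called lower, which has none. Mcm2, Timeless, Dut, Tk1 and Rrm2 were called lower too and have no word in their windows. Mcm3 and Pold1, also called lower, have words only after the gene start. Cdt1, Dnmt1, Hells, Lig1, Pola1 and Rfc3 have a word in their windows and were not called after 15 Gy of protons at day 6. Capitals mark the matched words. The joined capitals of Mcm6 and Mcm5 are each a pair of overlapping words on opposite strands.
Mcm6 (chr1:128359706-128359895, minus strand): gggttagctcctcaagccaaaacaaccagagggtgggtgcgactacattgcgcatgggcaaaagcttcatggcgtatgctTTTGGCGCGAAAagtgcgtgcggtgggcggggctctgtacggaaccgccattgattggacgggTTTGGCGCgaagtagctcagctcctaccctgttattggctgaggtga
Mcm7 (chr5:138171884-138172073, minus strand): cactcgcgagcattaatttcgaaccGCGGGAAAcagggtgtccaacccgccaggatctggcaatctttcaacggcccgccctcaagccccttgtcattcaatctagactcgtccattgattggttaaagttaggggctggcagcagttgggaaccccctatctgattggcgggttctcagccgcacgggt
Mcm5 (chr8:75109319-75109508, plus strand): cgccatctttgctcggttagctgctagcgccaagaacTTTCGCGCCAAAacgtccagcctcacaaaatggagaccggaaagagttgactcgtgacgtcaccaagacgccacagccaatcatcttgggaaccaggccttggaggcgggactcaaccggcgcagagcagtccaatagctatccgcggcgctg
Cdc6 (chr11:98907961-98908150, plus strand): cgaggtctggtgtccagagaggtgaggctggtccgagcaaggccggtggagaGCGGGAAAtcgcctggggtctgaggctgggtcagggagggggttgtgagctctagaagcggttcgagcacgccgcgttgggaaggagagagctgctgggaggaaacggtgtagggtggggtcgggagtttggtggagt
Uhrf1 (chr17:56304123-56304312, plus strand): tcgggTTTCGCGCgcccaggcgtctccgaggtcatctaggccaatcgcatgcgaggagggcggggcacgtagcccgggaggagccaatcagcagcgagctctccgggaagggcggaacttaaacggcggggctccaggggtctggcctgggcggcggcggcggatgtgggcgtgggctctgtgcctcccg
Pcna (chr2:132253181-132253370, minus strand): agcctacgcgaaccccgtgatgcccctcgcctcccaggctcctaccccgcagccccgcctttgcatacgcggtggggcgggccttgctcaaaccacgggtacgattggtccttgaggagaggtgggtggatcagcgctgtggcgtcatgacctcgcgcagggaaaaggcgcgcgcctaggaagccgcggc

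Libraries held 314409 to 4745719 reads in genes, with a median of 2952939. The photon 4 Gy day 6 library of mouse 3 was the shallowest and the next had 1311666 reads. That library and the photon day 2 control of mouse 3 stood apart from the rest of their groups in these genes, and for several results the values without them are also given. The epithelial markers Epcam, Cdh1, Krt8 and Krt18 summed to 2042 to 2988 CPM (counts scaled to a common library total) in every library. Acinar, myoepithelial, fibroblast, endothelial and immune markers summed to at most 24.8, 19.4, 3.44, 2.84 and 11.7 CPM, with Cdh5 and Cd3e at 0 throughout. Luminal duct markers summed to 1379 to 4052 CPM and basal duct markers to 2878 to 17088 CPM, so the labelled salivary gland cells held duct markers and few acinar ones.

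Levels are in CPM scaled by TMM over all 48 libraries, and each value is 1 mouse. As the libraries read transcript ends, a level is not divided by transcript length. Fold changes and p-values come from edgeR's quasi-likelihood test over all genes that passed its low-count filter, with Benjamini-Hochberg adjustment over those genes. A gene is said to have risen or fallen where its adjusted p was under 0.05. Slbp, which binds the stem-loop of histone messages, did not pass the filter in the proton libraries of a single day, so 42 genes were tested there and all 43 elsewhere. The comparisons of 4, 7 and 15 Gy within a type and day share their 3 control libraries.

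At day 6 after protons, part of the replication genes fell at 7 and 15 Gy and none was called at 4 Gy. The summed level of the 43 genes was 1489, 1448 and 1259 CPM in the controls of mice 1 to 3, 1348, 1305 and 1373 CPM at 4 Gy, 1150, 776 and 941 CPM at 7 Gy, and 832, 1188 and 865 CPM at 15 Gy. Every library at 7 and 15 Gy lay below every control library, and the 4 Gy libraries overlapped the controls. The group mean was 96.0% of the control mean at 4 Gy, 68.3% at 7 Gy and 68.8% at 15 Gy.

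**Figure D1:**
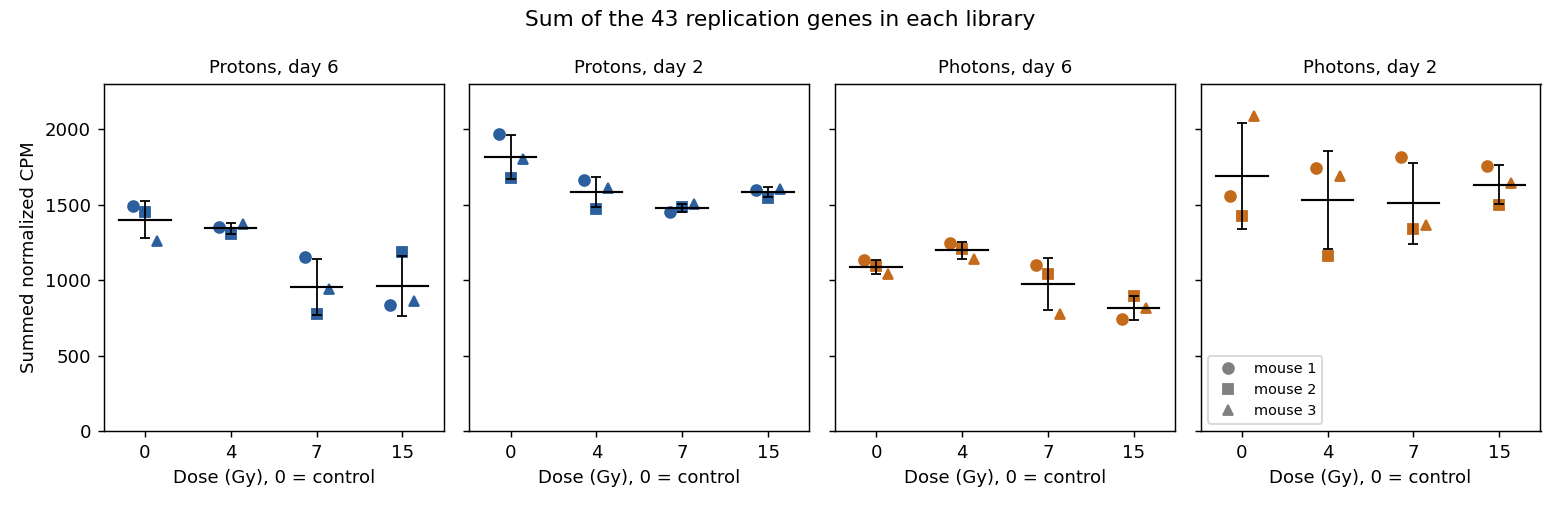
Summed normalized CPM of the 43 genes in each library (y axis) against dose in Gy (x axis, 0 is the unirradiated control), in 1 panel for each radiation type and day, with a symbol for each mouse, a line at the mean and bars of 1 SD (n = 3). At day 6 after protons the 7 and 15 Gy libraries lie between 776 and 1188 CPM and the controls between 1259 and 1489 CPM.

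After 4 Gy of protons none of the 42 genes tested was called at day 6, while 0.435% of all genes tested there were called lower. After 7 Gy 11 of 42 fell and none rose, against 6.6% of all genes, and after 15 Gy 15 of 42 fell and none rose, against 13.2% of all genes. The share at 15 Gy is to be read against that wide background. The median log2 fold change over the genes tested was -0.07, -0.61 and -0.58 from 4 to 15 Gy, beside -0.01, 0.00 and -0.02 over all genes. Scaling by library size alone moved the median of all genes to 0.10, 0.19 and 0.14 from 4 to 15 Gy, and the median of these genes was then 0.04, -0.42 and -0.42, so that the sign at 4 Gy turned. At 4 Gy the median ran from -0.18, without the 4 Gy library of mouse 3, to -0.03, without that of mouse 2. There 1 gene had an unadjusted p under 0.05, against 12.3% of all genes, and DESeq2 also called none. Between 15 Gy and 4 Gy, which share no library, 7 genes fell (Mcm2, Mcm3, Mcm4, Timeless, Tipin, Dut and Uhrf1) against 4.07% of all genes called lower.

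These counts moved with single libraries. At 15 Gy against the control the count lay between 8, without the control of mouse 2, and 21, without the 15 Gy library of mouse 2. At 7 Gy it was 1 without the 7 Gy library of mouse 2, 2 without the control of mouse 2, 6 without the 7 Gy or the 4 Gy library of mouse 3, and 7 without the control of mouse 1 or the 4 Gy library of mouse 1 or 2. With the mouse number as a block 7 genes were called at 7 Gy and 4 between 15 and 4 Gy. The 15 against 4 Gy count was 1 without the 4 Gy library of mouse 2 or 3 or the 15 Gy library of mouse 3, 2 without the 4 Gy library of mouse 1, 4 without the control of mouse 2 and 11 without the 15 Gy library of mouse 2.

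**Figure D2:**
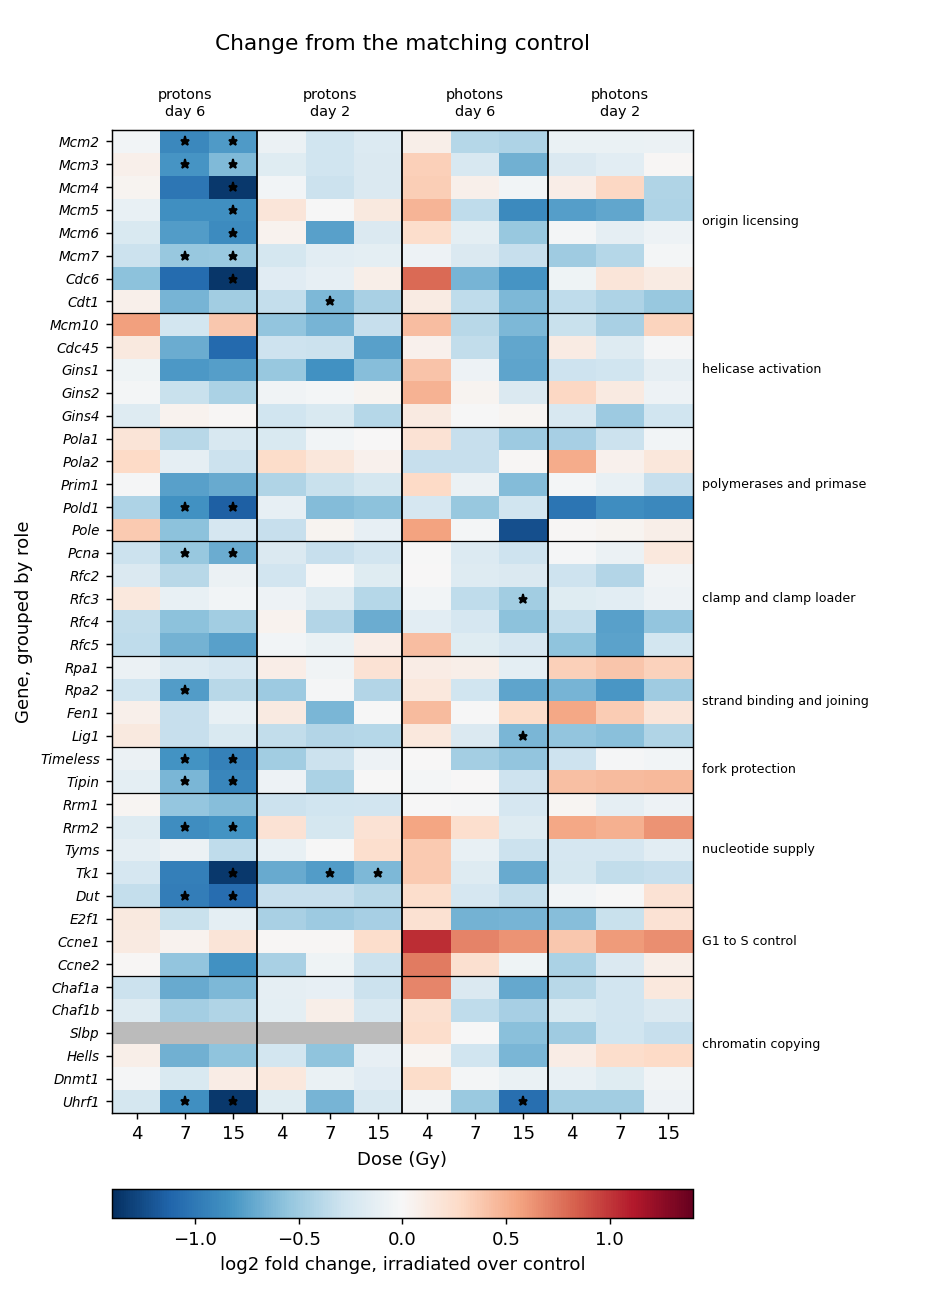
Log2 fold change of irradiated over control organoids for each of the 43 genes (rows, grouped by role) at each dose, radiation type and day (columns). Blue is lower and red higher than the matching control, a star marks an adjusted p under 0.05 and grey a gene that was not tested. All 32 stars are on lower values, and 26 of them are at day 6 after 7 and 15 Gy of protons.

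Among the origin licensing genes 7 of 8 fell after 15 Gy of protons at day 6 (Mcm2 to Mcm7 and Cdc6), and 3 of 8 fell after 7 Gy (Mcm2, Mcm3 and Mcm7). Of 12 leave-outs the 15 Gy call held in 4 for Mcm5, 8 for Mcm3 and 9 for Mcm6 and Mcm7. It held in 10 for Mcm2 and Cdc6 and 11 for Mcm4. The 7 Gy call held in 10 for Mcm2, 9 for Mcm3 and 4 for Mcm7. Cdt1, which loads the Mcm ring onto origins together with Cdc6, was the eighth, with a log2 fold change of -0.48 at 15 Gy that did not pass. Mcm2 was at 13.6, 13.8 and 10.3 CPM after 15 Gy, against 18.7, 26.3 and 19.8 CPM in the controls, and the groups did not overlap. All 15 Gy libraries lay below all controls in 16 of 42 genes, against 16.8% of all genes, so such a separation was common there. Mcm2 fell at 7 Gy as well (log2 fold change -0.91, SE 0.23, adjusted p = 0.0146, lower in 3 of 3 mice), where its libraries held 11.2, 10.1 and 13.4 CPM. Mcm3, another subunit of the ring, was at 50.0, 29.5 and 42.1 CPM after 7 Gy, against 81.4, 75.3 and 54.3 CPM in the controls (log2 fold change -0.82, SE 0.20, adjusted p = 0.0109). At 15 Gy the Mcm3 library of mouse 2 reached 58.4 CPM, above the lowest control. Mcm4, another ring subunit, was at 35.6, 30.4 and 11.0 CPM after 15 Gy, against 61.2, 56.1 and 84.9 CPM after 4 Gy (log2 fold change -1.39, SE 0.36, adjusted p = 0.0284). Cdc6, which helps load the ring, was at 3.31, 4.60 and 2.40 CPM after 15 Gy, against 6.57, 7.59 and 12.0 CPM in the controls.

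The genes that turn the licensed ring into an active helicase gave no call at either dose. Their log2 fold changes after 15 Gy ranged from -1.08 for Cdc45, which rides with the Mcm ring, to 0.38 for Mcm10. Cdc45 was at 3.92, 3.54 and 2.40 CPM after 15 Gy, against 6.07, 6.42 and 8.35 CPM in the controls, so the groups did not overlap although the gene did not pass. Gins4, a subunit of the GINS complex, was at 18.7, 30.4 and 28.5 CPM after 15 Gy, against 31.9, 23.3 and 19.8 CPM in the controls, and the groups overlapped.

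Of the polymerase and primase genes only Pold1, the catalytic subunit of polymerase delta, fell. It was at 5.72, 6.37 and 3.77 CPM after 15 Gy of protons, against 11.1, 9.92 and 13.6 CPM in the controls (log2 fold change -1.14, SE 0.27, adjusted p = 0.00527), with no overlap. Pola1, the catalytic subunit of polymerase alpha, was at 27.4, 55.2 and 35.0 CPM after 15 Gy, against 47.03, 42.6 and 44.4 CPM in the controls, and mouse 2 lay above every control. Pcna, the sliding clamp that holds polymerases on DNA, was at 46.7, 45.6 and 43.2 CPM after 15 Gy, against 79.9, 68.9 and 68.4 CPM in the controls (log2 fold change -0.70, SE 0.14, adjusted p = 0.0012). It also fell at 7 Gy (log2 fold change -0.53, SE 0.13, adjusted p = 0.0137). The 4 Gy libraries of Pcna, at 60.8, 60.4 and 58.5 CPM, lay below every control, though the change there did not pass (log2 fold change -0.30, SE 0.13, adjusted p = 0.355). This separation at 4 Gy held in 4 of 42 genes, near the 8.19% of all genes. None of the 4 clamp loader genes Rfc2 to Rfc5 fell after protons at day 6. Among the genes that bind single strands or join fragments Rpa2, a subunit of replication protein A, fell after 7 Gy and not after 15 Gy. Its 15 Gy library of mouse 2 was at 46.7 CPM, against 46.5, 38.5 and 38.6 CPM in the controls, while those of mice 1 and 3 lay below every control.

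Both genes of the fork protection complex fell at 7 and at 15 Gy. Tipin, which holds Timeless at the fork, was at 43.1, 51.3 and 39.8 CPM after 15 Gy of protons, against 86.0, 92.8 and 70.5 CPM in the controls (log2 fold change -0.91, SE 0.16, adjusted p = 5.48e-04). After 7 Gy it was at 65.4, 44.3 and 53.3 CPM (log2 fold change -0.64, SE 0.16, adjusted p = 0.0129). Against 4 Gy the change of Tipin at 15 Gy was -0.78 (SE 0.16, adjusted p = 0.0101), and this call held when any 1 library was left out. Timeless was at 6.03, 10.3 and 6.86 CPM after 15 Gy, against 14.7, 14.6 and 14.6 CPM in the controls. Its change against 4 Gy was -0.87 (SE 0.24, adjusted p = 0.0393), and that call was lost in 8 of 12 leave-outs.

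In nucleotide supply Dut, the enzyme that removes dUTP, gave the smallest p-value among the 42 genes at both doses. It was at 44.6, 57.6 and 39.4 CPM after 15 Gy, against 93.6, 107 and 91.9 CPM in the controls (log2 fold change -1.07, SE 0.17, adjusted p = 2.24e-04). At 7 Gy its log2 fold change was -0.97 (SE 0.17, adjusted p = 8.99e-04), with 65.4, 42.3 and 45.2 CPM, and all groups above 0 Gy lay below the controls. All libraries lay below all controls in 4, 20 and 16 of 42 genes from 4 to 15 Gy, against 8.19%, 14.8% and 16.8% of all genes. Tk1, thymidine kinase, was at 6.93, 31.1 and 18.5 CPM after 15 Gy, against 55.1, 45.5 and 39.1 CPM in the controls (log2 fold change -1.35, SE 0.35, adjusted p = 0.0097). Rrm2, the small subunit of ribonucleotide reductase, was at 18.9, 11.9 and 15.3 CPM after 7 Gy, against 23.8, 33.8 and 25.1 CPM in the controls (log2 fold change -0.87, SE 0.22, adjusted p = 0.0154). Its partner Rrm1 did not pass at either dose, and its 15 Gy libraries were at 39.2, 85.6 and 43.2 CPM, against 92.6, 77.0 and 78.8 CPM in the controls. Tyms, thymidylate synthase, was at 9.64, 13.1 and 10.3 CPM after 15 Gy, against 17.2, 12.3 and 12.0 CPM in the controls, and the groups overlapped.

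In chromatin copying Uhrf1, which brings the maintenance methyltransferase Dnmt1 to newly copied DNA, was at 5.42, 9.19 and 4.46 CPM after 15 Gy of protons, against 16.2, 19.3 and 12.5 CPM in the controls (log2 fold change -1.35, SE 0.28, adjusted p = 0.00192). Against 4 Gy its change was -1.10 (SE 0.27, adjusted p = 0.0229). Dnmt1 itself was at 50.6, 70.7 and 54.5 CPM after 15 Gy, against 53.6, 56.6 and 50.6 CPM in the controls, and the groups overlapped. Of the genes of G1 to S control none was called. Ccne1, the cyclin that starts S phase with Cdk2, was at 9.04, 6.37 and 8.91 CPM after 15 Gy, against 8.60, 4.08 and 8.35 CPM in the controls.

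**Figure D3:**
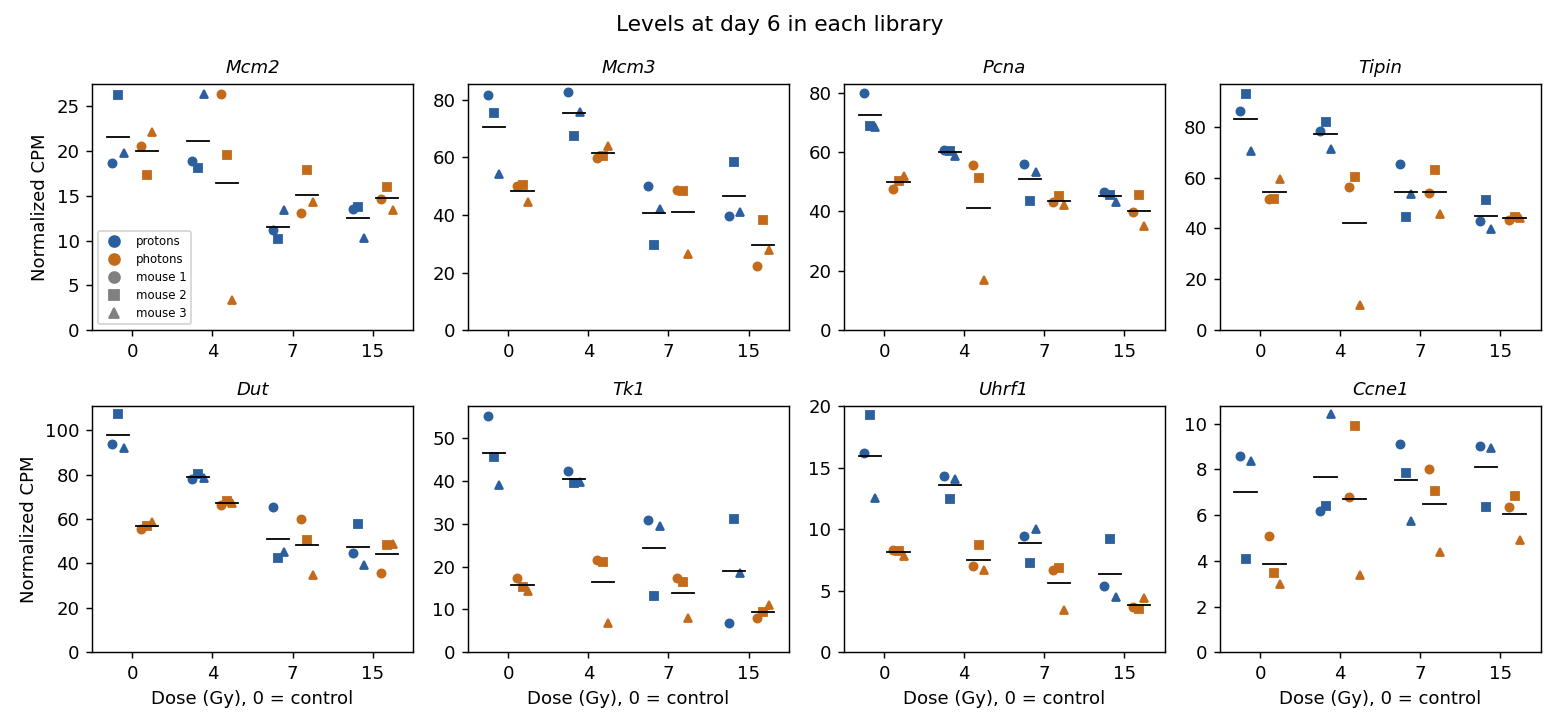
Normalized CPM at day 6 (y axes, from 0) of 8 genes against dose in Gy (x axis, 0 is the control), with protons in blue left of photons in orange, a symbol for each mouse and a line at the mean. The Pcna, Tipin and Dut libraries after 15 Gy of protons lie below all of their controls, Ccne1 overlaps its proton controls, and the photon 4 Gy library of mouse 3 is far below its group in Mcm2, Pcna and Tipin.

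Of 60 other replication genes 55 were tested in the proton day 6 libraries. After 15 Gy 8 of the 55 fell and 4 rose, where 13.2% of all genes were called lower and 11% higher. After 7 Gy 6 fell and none rose, where 6.6% of all genes were called lower and 5.49% higher. Those with the smallest p after 15 Gy were Ccna2, the S phase cyclin (log2 fold change -1.44, adjusted p = 0.00179), Cdca7 (-1.97, adjusted p = 0.00184), Orc2, a subunit of the origin recognition complex (0.57, adjusted p = 0.00951), and the histone chaperone Asf1b (-1.05, adjusted p = 0.0171). The other 3 that rose were Rfc1, Pole3 and Ssrp1, chosen for naming after their values were seen. Cdkn1a rose at both doses, by 0.60 (SE 0.16, adjusted p = 0.00986) at 15 Gy and 0.61 (SE 0.16, adjusted p = 0.0164) at 7 Gy on the log2 scale. Mki67, the proliferation marker, was not called after 15 Gy, where its libraries held 6.33, 61.9 and 15.4 CPM, against 27.4 and 25.1 CPM in the controls of mice 2 and 3. The control of mouse 1 lay between those and the 15 Gy library of mouse 2. Mouse 2 was the high library of the 15 Gy group both in Mki67 and in the summed replication genes. Duct and other epithelial markers changed in the same libraries. All 4 basal duct markers (Trp63, Krt14, Krt15 and Krt5) fell after 15 Gy and 3 of 4 after 7 Gy, and their summed level was 2878 to 3977 CPM after 15 Gy and 3588 to 4011 CPM after 7 Gy, against 6039 to 7285 CPM in the controls. The keratins Krt8 and Krt18 rose at both doses. Of the luminal duct markers Tfcp2l1 fell at both doses and Krt19 after 15 Gy, and Aqp5, the one acinar marker tested, fell after 15 Gy. The luminal duct list summed to 2200 to 2726 CPM after 15 Gy, against 2276 to 2623 CPM in the controls, and the acinar list to 0.904 to 5.66 CPM, against 9.92 to 13.4 CPM in the controls. Library depth differed as well, at 2514472 to 4220561 reads in the irradiated libraries, against 1812349 to 2244980 in the controls. The part of these markers and of depth in these results was not tested.

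At day 2 after protons few of the replication genes were called. The summed level was 1968, 1678 and 1799 CPM in the controls, 1661, 1472 and 1611 CPM at 4 Gy, 1450, 1482 and 1503 CPM at 7 Gy, and 1595, 1544 and 1604 CPM at 15 Gy. All 9 irradiated libraries lay below every control library. At 7 Gy 2 of 42 genes fell (1.32% of all genes were called lower), at 15 Gy 1 of 42 fell (4.37% of all genes) and at 4 Gy none did (0.351% of all genes), and none rose at any dose. The median log2 fold change was -0.17 at 4 Gy, -0.28 at 7 Gy and -0.20 at 15 Gy, with 33, 38 and 32 of 42 genes below 0, and was -0.10 at 4 Gy and at 15 Gy without the control of mouse 1. Over all genes the median was 0.02, 0.01 and 0.00 from 4 to 15 Gy. At 4 Gy 6 of 42 genes had an unadjusted p under 0.05, against 11.6% of all genes, and DESeq2 and the fit with the mouse as a block called 1 gene each. In the same libraries Cdkn1a rose at 7 Gy (log2 fold change 0.66, SE 0.14, adjusted p = 0.0138) and at 15 Gy (log2 fold change 0.66, SE 0.14, adjusted p = 0.00629). Among the markers the basal duct gene Krt15 rose at 4 Gy and Trp63 fell at 7 and 15 Gy, Tfcp2l1 fell at 15 Gy, and Aqp5 fell at 4 and 15 Gy. The basal duct list summed to 11918 to 15457 CPM at 4 Gy, 12657 to 16190 CPM at 7 Gy and 14382 to 17088 CPM at 15 Gy, against 11039 to 14239 CPM in the controls. The part of these markers in the result was not tested.

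Tk1 gave the smallest p at every proton dose on day 2. It was at 66.9, 43.4 and 49.2 CPM after 4 Gy, 50.5, 56.9 and 43.9 CPM after 7 Gy and 51.3, 55.1 and 62.96 CPM after 15 Gy, with controls at 102, 73.7 and 84.2 CPM. No irradiated library of Tk1 overlapped the controls. All libraries lay below all controls in 10, 10 and 15 of 42 genes from 4 to 15 Gy, against 8.91%, 10.1% and 15.4% of all genes. The log2 fold change of Tk1 was -0.70 (SE 0.18, adjusted p = 0.0622) at 4 Gy, -0.78 (SE 0.18, adjusted p = 0.0252) at 7 Gy and -0.63 (SE 0.17, adjusted p = 0.0312) at 15 Gy. Cdt1 was at 26.5, 23.5 and 25.6 CPM after 7 Gy, against 43.4, 35.7 and 37.4 CPM in the controls (log2 fold change -0.63, SE 0.16, adjusted p = 0.0406). The Cdt1 call was lost in 11 of 12 leave-outs. The 7 Gy count fell to 0 without the control or the 7 Gy library of mouse 1 or mouse 3 and to 1 without the control of mouse 2, the 4 Gy library of mouse 1 or 3 or any 15 Gy library, and was 4 with the mouse as a block. The 15 Gy count was 0 without the control of mouse 1 or 3 or the 15 Gy library of mouse 1 or 2, and 2 without the 4 Gy library of mouse 2. The 4 Gy count was 1 without the 4 Gy library of mouse 1 or the 7 Gy library of mouse 2. Mcm6 was at 31.4, 16.2 and 32.1 CPM after 7 Gy, against 53.5, 39.9 and 40.5 CPM in the controls, and did not pass (log2 fold change -0.76, SE 0.22, adjusted p = 0.0755). Of the other replication genes only Exo1, a nuclease, fell at 7 Gy (log2 fold change -1.17, SE 0.30, adjusted p = 0.0415). Between 15 and 4 Gy none of the 42 was called (0.0665% of all genes were called lower), 2 had an unadjusted p under 0.05, against 9.75% of all genes, and the median was -0.02 and ran from -0.03 to 0.03 with the 4 Gy library of mouse 2 or of mouse 1 left out.

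At day 6 after photons 3 replication genes fell at 15 Gy and none was called at 4 or 7 Gy. The summed level was 1133, 1093 and 1037 CPM in the controls, 1247, 1206 and 1137 CPM at 4 Gy, 1101, 1038 and 777 CPM at 7 Gy, and 739, 897 and 817 CPM at 15 Gy. The 15 Gy libraries lay below all controls, the 7 Gy libraries overlapped them and the 4 Gy libraries lay above all of them. The separation at 4 Gy rests on the shallow library of mouse 3, at 1137 CPM against 1133 CPM in the highest control. That library held 338 reads of the 43 genes. The median log2 fold change over all genes was 0.0025, -0.0028 and 0.0025 from 4 to 15 Gy. Over the 43 genes it was 0.22 at 4 Gy (34 of 43 genes above 0), -0.20 at 7 Gy (36 of 43 below 0) and -0.48 at 15 Gy (39 of 43 below 0). Without the shallow 4 Gy library of mouse 3 the 4 Gy median was 0.15. Without the 7 Gy library of mouse 3 the 7 Gy median was 0.01, so that its sign turned, and it was -0.13 without the control of mouse 1. The log2 fold change fell step by step with dose in 37 of 43 genes, against 23% of all genes tested, and in 17 of 42 genes after protons at day 6, against 26.4% of all genes. With 1 library left out the photon count lay between 28, without the 7 Gy library of mouse 1, and 37. It was 37 without the shallow 4 Gy library and 34 without the 7 Gy library of mouse 3. The proton count lay between 9, without the 7 Gy library of mouse 1, and 26, without the 15 Gy library of mouse 2. At day 2 the log2 fold change fell step by step in 4 of 43 genes after photons, against 21.8% of all genes. After protons at day 2 it did so in 5 of 42 genes, against 18.3% of all genes.

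After 15 Gy of photons 3 of 43 genes fell at day 6 and none rose (2.77% of all genes were called lower). Uhrf1 was at 3.68, 3.52 and 4.40 CPM, against 8.29, 8.23 and 7.82 CPM in the controls (log2 fold change -1.05, SE 0.28, adjusted p = 0.0381). Lig1, the ligase that joins Okazaki fragments, was at 63.5, 76.2 and 69.1 CPM, against 110, 131 and 90.4 CPM in the controls (log2 fold change -0.64, SE 0.17, adjusted p = 0.0427). Rfc3 was at 30.4, 36.9 and 40.4 CPM, against 52.3, 51.1 and 49.6 CPM in the controls (log2 fold change -0.48, SE 0.13, adjusted p = 0.0499). In each of the 3 genes the groups did not overlap. In 23 of 43 genes all 15 Gy libraries lay below all controls, against 14.5% of all genes tested. The calls depended on single libraries. The count was 0 without the control of mouse 1 or 2, the 4 Gy library of mouse 1 or 2, or the 15 Gy library of mouse 1 or 3, was 1 without the control of mouse 3 or the 15 Gy library of mouse 2, and was 6 without the 4 Gy or the 7 Gy library of mouse 3. DESeq2 called 1.

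At 4 and 7 Gy of photons at day 6 no gene was called, against 0.292% and 1.12% of all genes called lower, and 1 and 2 genes had an unadjusted p under 0.05, against 8.83% and 11.9% of all genes. DESeq2 also called none at either dose. Ccne1 gave the smallest p at 4 Gy, with 6.79, 9.89 and 3.36 CPM, against 5.10, 3.47 and 2.97 CPM in the controls (log2 fold change 1.03, SE 0.33, adjusted p = 0.236). Its log2 fold change was 0.70 (SE 0.32, adjusted p = 0.407) at 7 Gy. Cdc6 was at 6.53, 3.76 and 3.36 CPM at 4 Gy, against 3.61, 2.17 and 2.43 CPM in the controls (log2 fold change 0.79, SE 0.38, adjusted p = 0.577). In both genes the 4 Gy value of mouse 3 comes from the shallow library, which held 338 reads of all 43 genes together. Between 15 and 4 Gy the median log2 fold change of all genes was 0.01. Of the 43 genes 42 were below 0, with a median of -0.68 (-0.62 without the shallow 4 Gy library). There 23 had an unadjusted p under 0.05, against 8.41% of all genes, yet none passed the adjustment over all genes (0.141% of all genes were called lower). Mcm5 came nearest, at 6.68, 13.1 and 12.9 CPM after 15 Gy, against 28.6, 28.1 and 37.0 CPM after 4 Gy (log2 fold change -1.36, SE 0.27, adjusted p = 0.0615). DESeq2 called 4 genes in that comparison, and edgeR called 2 without the 4 Gy library of mouse 3 and 4 without the 7 Gy library of mouse 3. Ccna2, from the list of other replication genes, fell there (log2 fold change -1.74, SE 0.31, adjusted p = 0.0443). Mki67 fell after 15 Gy against the control (log2 fold change -1.61, SE 0.32, adjusted p = 0.00786), with 4.01, 9.18 and 10.1 CPM, against 34.0, 21.2 and 18.1 CPM. Cdkn1a was not called (log2 fold change 0.48, SE 0.16, adjusted p = 0.109). Of the markers Aqp5 and the basal duct genes Trp63 and Krt14 fell after 15 Gy, and the basal duct list summed to 3682 to 4149 CPM, against 4617 to 5480 CPM in the controls. The part of these markers in the result was not tested.

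At day 2 after photons no replication gene was called at any dose. The summed level was 1554, 1422 and 2086 CPM in the controls, 1742, 1159 and 1691 CPM at 4 Gy, 1817, 1336 and 1368 CPM at 7 Gy, and 1754, 1498 and 1641 CPM at 15 Gy, and the groups overlapped. The shares of all genes called lower were 0.127% at 4 Gy, 1.14% at 7 Gy and 2.38% at 15 Gy. At an unadjusted p under 0.05 there were 2, 4 and 3 of 43 genes, against 10.2%, 17.5% and 20.3% of all genes, and DESeq2 called none at any dose. The median log2 fold change was -0.22, -0.18 and -0.05 from 4 to 15 Gy. The control of mouse 3 held 299 CPM of Lig1, 194 CPM of Mcm7 and 29.2 CPM of Tipin, where the controls of mice 1 and 2 held 137 and 144, 80.6 and 83.6, and 72.96 and 63.7 CPM. Without it the medians were 0.00, -0.03 and 0.16, so that the sign at 15 Gy turned. With any 1 library left out they ran from -0.37 (without the 4 Gy library of mouse 1) to 0.00 at 4 Gy, from -0.36 (without the 7 Gy library of mouse 1) to -0.03 at 7 Gy, and from -0.18 (without the control of mouse 2) to 0.16 at 15 Gy. The 15 Gy count was 1 without the control of mouse 1 or mouse 3, and the 7 Gy count was 1 without the control of mouse 1. Pold1 gave the smallest p at 4 and 7 Gy. It was at 7.55, 5.40 and 5.29 CPM after 4 Gy, 7.00, 6.56 and 6.47 CPM after 7 Gy and 6.74, 7.61 and 4.92 CPM after 15 Gy, with controls at 9.56, 8.68 and 19.0 CPM. The irradiated libraries of Pold1 all lay below the controls, and the log2 fold change was -1.02 (SE 0.31, adjusted p = 0.25), -0.87 (SE 0.31, adjusted p = 0.161) and -0.91 (SE 0.32, adjusted p = 0.12) from 4 to 15 Gy. Without the control of mouse 3 it was -0.62, -0.46 and -0.51. All irradiated libraries lay below all controls in 1, 3 and 2 of the 43 genes from 4 to 15 Gy, against 5.2%, 9.07% and 10.1% of all genes. Between 15 and 4 Gy none was called (0.0272% of all genes were called lower), 1 had an unadjusted p under 0.05, against 9.09% of all genes, and the median was 0.11 (-0.07 without the 4 Gy library of mouse 2, 0.23 without that of mouse 1). Cdkn1a rose at 15 Gy (log2 fold change 0.95, SE 0.17, adjusted p = 0.005) in the same libraries, and of the luminal duct markers Tfcp2l1 fell at every dose.

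**Figure D4:**
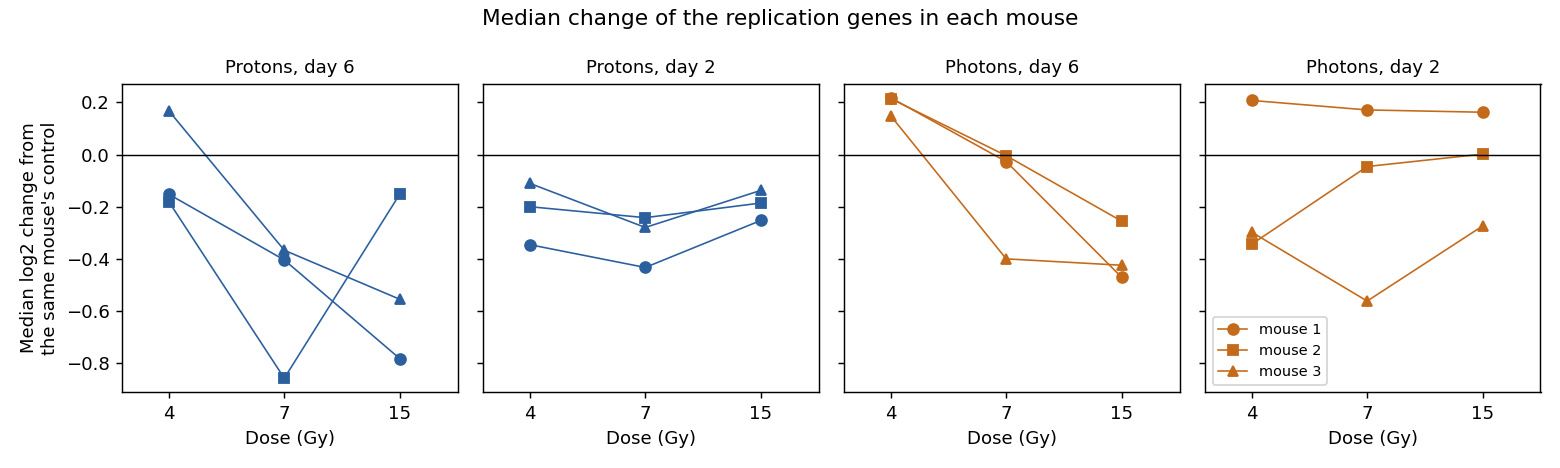
Median over the tested genes of the log2 change of each irradiated library from the control of the same mouse (y axis, prior count 2) against dose in Gy (x axis), with a line for each mouse. After 15 Gy at day 6 the medians are -0.78, -0.15 and -0.55 for protons and -0.47, -0.26 and -0.42 for photons, and at day 2 after photons mouse 1 is above 0 at every dose while mouse 3 is below.

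Compared within mice, the median of the replication genes was below 0 at day 6 in each mouse after 7 and 15 Gy of protons and of photons. After 7 Gy of photons it was -0.03, -0.004 and -0.40 in mice 1 to 3. There 13 of 43 genes were lower in all 3 mice, against 19% of all genes. After 15 Gy of protons the median change from the same mouse's control was -0.78, -0.15 and -0.55 in mice 1 to 3, and 19 of 42 genes were lower in all 3 mice, against 22.6% of all genes. After 7 Gy it was -0.40, -0.86 and -0.37, and 26 of 42 genes were lower in all 3, against 22.2% of all genes. Mouse 2 thus gave the largest fall at 7 Gy and the smallest at 15 Gy. After 15 Gy of photons the medians were -0.47, -0.26 and -0.42, with 28 of 43 genes lower in all 3 mice and 1 higher in all 3, against 23.2% and 20.5% of all genes. After 4 Gy of photons at day 6, 13 genes were higher in all 3 mice and none was lower in all 3, against 10.4% and 15% of all genes. Without mouse 3, whose 4 Gy library is the shallow one, 25 genes were higher in both mice and 2 were lower, against 32.6% and 31.1% of all genes. At day 2 the median was below 0 in each mouse at every proton dose, from -0.11 (4 Gy, mouse 3) to -0.43 (7 Gy, mouse 1). Of 42 genes 15, 18 and 21 were lower in all 3 mice there from 4 to 15 Gy. The shares of all genes were 18.9%, 19.6% and 21.8%.

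The question whether protons and photons differ was put to the difference of their effects. None of the 43 genes was called in the difference at 4 or 15 Gy on either day. At 15 Gy and day 6 (1.86% of all genes were called lower in protons) the median difference, proton minus photon, was -0.06, and 4 of 43 genes had an unadjusted p under 0.05, against 21.7% of all genes. The median ran from -0.23, without the proton 15 Gy library of mouse 2, to -0.02, without the photon control of mouse 2. Under scaling by library size alone it was 0.03, so that its sign turned, and the median of all genes moved by 0.14. Dut gave the smallest p (difference -0.68, SE 0.25, adjusted p = 0.112), then Mcm4 (-1.26, SE 0.48, adjusted p = 0.124) and Rfc3 (0.50, SE 0.22, adjusted p = 0.173). A count of 1 was reached without the proton 15 Gy library of mouse 1. At 4 Gy and day 6 the median was -0.27 (-0.18 without the proton 4 Gy library of mouse 2) and 2 genes had an unadjusted p under 0.05, against 4.01% of all genes, among them Cdc6 (-1.34, SE 0.51, adjusted p = 1). At day 2 the medians were 0.00 at 4 Gy and -0.11 at 15 Gy, with 1 and 0 genes at an unadjusted p under 0.05, against 2.8% and 5.14% of all genes. The sign of both turned with single libraries. The 4 Gy median ran from -0.23, without the photon 4 Gy library of mouse 2, to 0.13, without that of mouse 1. The 15 Gy median ran from -0.37, without the photon control of mouse 3, to 0.01, without the photon control of mouse 2. DESeq2 called none of the 43 genes in these 4 differences, and 0% of all genes were called lower by edgeR in the 3 other than 15 Gy at day 6. A p that missed the threshold does not show that the radiation types acted alike. Of the other replication genes Rfc1, the large subunit of the clamp loader, was higher in protons at 15 Gy and day 6 (difference 0.71, SE 0.18, adjusted p = 0.0234). Of the markers Krt18 was higher and Trp63 and Krt15 were lower in protons in the same difference.

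The effect of a dose at day 6 was also set against its effect at day 2. No gene was called in the 4 differences, which cover 4 and 15 Gy of each type. The difference at 7 Gy was not tested. After 15 Gy of protons the median difference, day 6 minus day 2, was -0.38, with 33 of 43 genes below 0 and 10 at an unadjusted p under 0.05, against 19.2% of all genes (1.59% of all genes were called lower). The median ran from -0.59, without the 15 Gy day 6 library of mouse 2, to -0.23, without the day 6 control of mouse 1. Krt18 was higher and Krt14, Krt15 and Krt5 were lower in this difference. Rrm2 had the smallest p (difference -1.03, SE 0.30, adjusted p = 0.0629), then Tipin (-0.90, SE 0.28, adjusted p = 0.0728) and Dut (-0.68, SE 0.22, adjusted p = 0.093). DESeq2 called 2 genes here and the fit with the mouse as a block 1. Leaving out the 4 Gy day 2 library of mouse 2 or the 15 Gy day 6 library of mouse 1 or 2 gave 1, and leaving out the 7 Gy day 2 library of mouse 2 gave 2. The median was 0.07 after 4 Gy of protons, -0.35 after 15 Gy of photons and 0.43 after 4 Gy of photons (0.24 without the photon day 2 control of mouse 3, 0.26 without the photon 4 Gy day 2 library of mouse 2). At an unadjusted p under 0.05 there were 1, 2 and 2 genes, against 7.15%, 7.94% and 5.26% of all genes, and DESeq2 called none. The median after 4 Gy of protons ran from -0.00, without the 4 Gy or the control day 6 library of mouse 3, to 0.20, without the day 6 control of mouse 2. Of all genes 0.0537%, 0.0864% and 0% were called lower in these 3 differences.

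Without radiation 10 replication genes in the proton controls and 12 in the photon controls fell between day 2 and day 6. The summed level was 1489, 1448 and 1259 CPM in the proton controls at day 6, against 1968, 1678 and 1799 CPM at day 2, and 1133, 1093 and 1037 CPM in the photon controls at day 6, against 1554, 1422 and 2086 CPM at day 2. The day 6 mean was 77.1% of the day 2 mean in the proton controls and 64.5% in the photon controls. In the proton controls 10 of 43 genes fell and none rose, with 9.15% of all genes called lower, and in the photon controls 12 of 43 fell and none rose, with 8.48% of all genes called lower. The median log2 fold change was -0.24 in the proton controls and -0.73 in the photon controls. It was -0.45 in the proton controls without the day 2 library of mouse 2, and -0.49 in the photon controls without the day 2 library of mouse 3. Without that photon library 12 genes were again called, but not the same ones, as the calls of Uhrf1, Mcm5 and Lig1 were lost. The proton count was 4 without the day 6 control of mouse 3 and 5 without the day 6 control of mouse 2 or the day 2 control of mouse 1. A fit to the 6 photon controls alone, chosen after the data were seen, called 4 of the 43 genes and 637 genes in all. The same fit to the 6 proton controls called 12 of 41 genes tested and 2229 genes in all.

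Of the 5 nucleotide supply genes 3 fell in the proton controls (Rrm1, Rrm2 and Tk1) and 4 in the photon controls (the same genes and Dut). Ccne1 and Ccne2, the cyclins E, fell in both sets. Rrm1, the large subunit of ribonucleotide reductase, was at 92.6, 77.0 and 78.8 CPM in the proton controls at day 6, against 166, 157 and 162 CPM at day 2 (log2 fold change -0.95, SE 0.22, adjusted p = 0.00235). In the photon controls it was at 74.6, 69.8 and 64.8 CPM at day 6, against 121, 118 and 147 CPM at day 2 (log2 fold change -0.92, SE 0.13, adjusted p = 2.51e-05). The groups of Rrm1 did not overlap in either. All day 6 controls lay below all day 2 controls in 14 of 43 genes in the proton set, against 19.3% of all genes. In the photon set this held in 19 of 43 genes, against 11.9% of all genes. Rrm2 fell by 1.08 on the log2 scale in the proton controls (SE 0.21, adjusted p = 6.90e-04), with 23.8, 33.8 and 25.1 CPM at day 6, against 62.7, 42.3 and 70.2 CPM at day 2. Ccne2 was at 9.61, 4.67 and 5.74 CPM in the proton controls at day 6, against 16.5, 15.0 and 16.1 CPM at day 2 (log2 fold change -1.22, SE 0.29, adjusted p = 0.00365). In the photon controls it was at 2.55, 5.20 and 3.51 CPM at day 6, against 12.8, 9.05 and 13.6 CPM at day 2 (log2 fold change -1.77, SE 0.38, adjusted p = 0.00221). Ccne1 was at 8.60, 4.08 and 8.35 CPM in the proton controls at day 6, against 21.3, 16.4 and 14.6 CPM at day 2 (log2 fold change -1.29, SE 0.31, adjusted p = 0.0033). Ccne1, which no dose of either radiation type lowered at day 6, thus fell with culture time in these controls. Tk1 was at 17.4, 15.2 and 14.3 CPM in the photon controls at day 6, against 43.2, 38.7 and 34.0 CPM at day 2 (log2 fold change -1.35, SE 0.22, adjusted p = 1.46e-04).

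**Figure D5:**
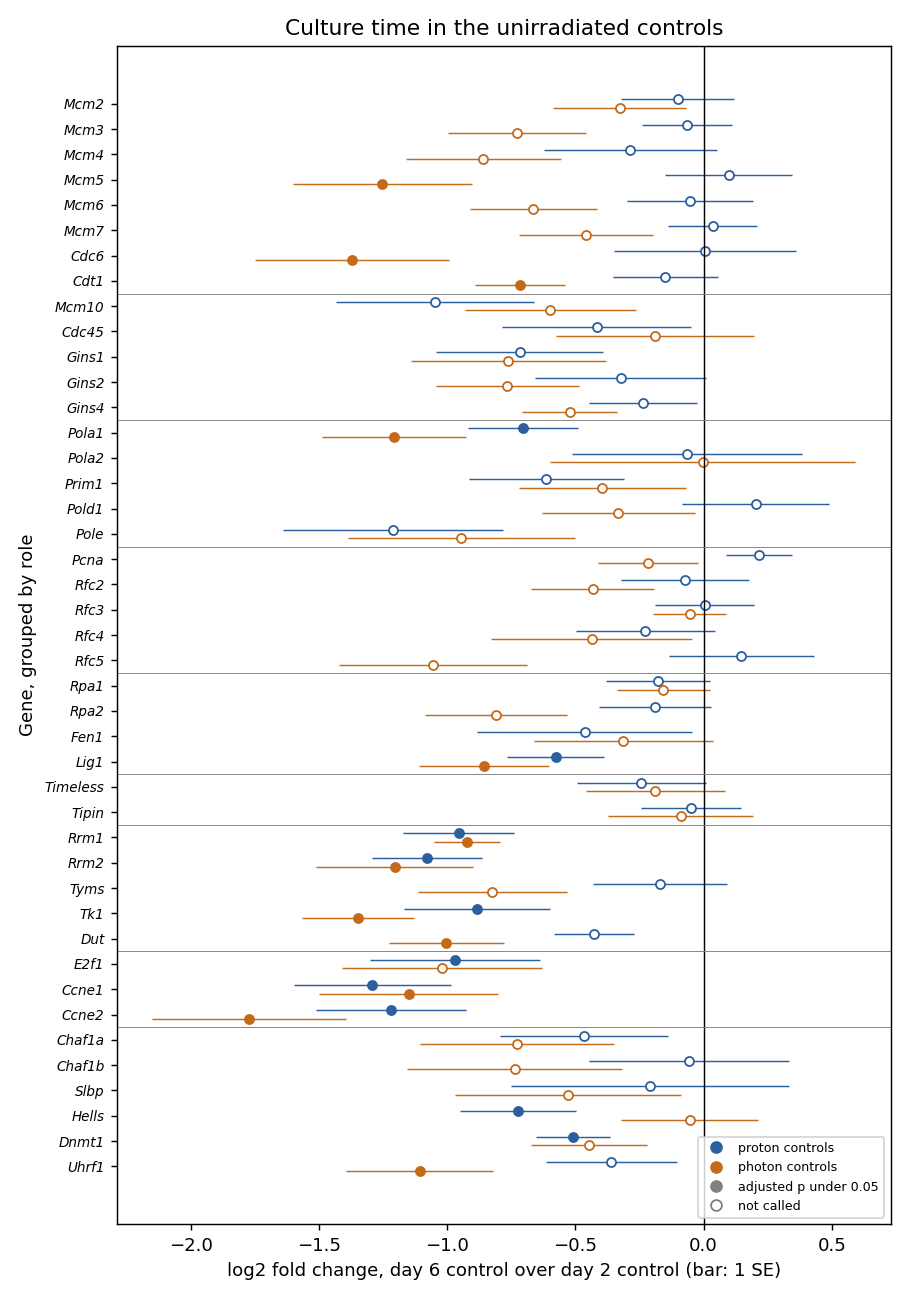
Log2 fold change of day 6 over day 2 unirradiated controls (x axis, bars of 1 SE) for each gene (rows, grouped by role), with proton controls in blue above photon controls in orange. Filled points have an adjusted p under 0.05, and all 22 of them lie below 0.

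In the proton controls none of the 8 licensing genes was called, and their log2 fold changes with time ran from -0.29 for Mcm4 to 0.10 for Mcm5. Of the 8, 7 were called lower after 15 Gy of protons at day 6, in a separate fit. The change with time and the change after protons were not tested against each other. In the photon controls Mcm5, Cdc6 and Cdt1 fell with time. The Mcm5 call was lost without the day 2 control of mouse 3 or the day 6 control of mouse 2 or 3. That of Cdc6 was lost without the day 2 control of mouse 1 or the day 6 control of mouse 2 or 3. Cdt1 was at 28.3, 24.7 and 24.8 CPM at day 6, against 45.1, 46.7 and 32.1 CPM at day 2 (log2 fold change -0.72, SE 0.18, adjusted p = 0.00677). Timeless and Tipin were not called in either set of controls, with log2 fold changes between -0.24 and -0.05. Of the other replication genes 9 of 57 tested fell and 1 rose in the proton controls (9.15% of all genes were called lower and 8.28% higher), and 12 of 58 fell in the photon controls (8.48% lower). Ccna2 had a log2 fold change of -1.28 (adjusted p = 2.06e-04) in the proton controls and -2.31 (adjusted p = 1.91e-06) in the photon controls. Mki67 fell by 1.87 on the log2 scale in the proton controls (adjusted p = 0.0013) and by 1.93 in the photon controls (adjusted p = 3.16e-04). Cdkn1a rose with time in the photon controls (log2 fold change 0.80, SE 0.17, adjusted p = 0.00165). In the proton controls Cdkn1a was not called (log2 fold change 0.10, SE 0.15, adjusted p = 0.722). Krt7, a luminal duct marker, rose in the proton controls. In the photon controls the luminal duct markers Tfcp2l1 and Elf5 were called, 1 higher and 1 lower. The acinar marker Amy1 and the immune marker Lyz2 rose there. The luminal duct list summed to 2276 to 2623 CPM at day 6, against 1438 to 1792 CPM at day 2, in the proton controls. In the photon controls it summed to 3042 to 3864 CPM at day 6, against 2120 to 2679 CPM at day 2. The basal duct markers Krt14 and Krt5 fell in both sets of controls, and their list summed to 6039 to 7285 CPM at day 6, against 11039 to 14239 CPM at day 2, in the proton controls and 4617 to 5480 CPM at day 6, against 8469 to 12651 CPM at day 2, in the photon controls. The part of these markers in the fall with time was not tested.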

How the data were processed

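QuantSeq 3′ libraries of polyadenylated RNA were made from 100 ng of RNA per sample, per the labels. The deposited files hold raw read counts per gene, with no normalization by the authors. The submitters' processing notes name edgeR and the build GRCm39. Which aligner and counter were used, and whether counting kept strand, is not given in the sources used here, so reads of overlapping or antisense genes cannot be told apart. The 4 deposited CPM tables were not used.

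Samples were grouped by their titles. Summary lines for reads outside genes (7.88 to 12.1% of a library) were left out. Symbols were matched through a reference table, with 1 identifier for each gene. Counts were tested in R 4.3.3 with edgeR 4.0.16 (TMM, filterByExpr, quasi-likelihood F test), in 4 fits of 12 libraries by type and day and 4 fits of 24 libraries for culture time and differences of effects, which gave 26 comparisons. Benjamini-Hochberg adjustment ran over all genes tested, between 10529 and 11578 in a fit. Each SE was derived from the F statistic, as the size of the fold change over its root. Log2 CPM used a prior count of 2. The procedure was tested on simulated data.

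Named genes are the called members with the smallest p, up to 6 per comparison, or the 3 smallest where under 3 were called. Levels may be given for any member. The members and lists were chosen with earlier results of these data known. Per the labels, same-numbered samples of a radiation type share a mouse, so the number pairs them. Over all genes the mean correlation of deviations from the group means between same-numbered libraries was -0.03 and 0.08 for protons at days 6 and 2, and 0.08 at both days for photons. The labels do not say whether both radiation types used the same mice. Alternatives were library size alone, RLE size factors, no low-count filter, a mean CPM of at least 5, DESeq2 1.42.0, the mouse as a block, and each of the 48 libraries left out in turn.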

Additional observations from a re-analysis of the deposited data

How the results depend on the processing

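Directions of the named genes never reversed in the alternatives tried. RLE size factors and the stricter filter left every count of called genes within 1.5 times of the reported one. Without a low-count filter the counts were 1, 3 and 1 at photon 4, 7 and 15 Gy on day 2, 7 at photon 15 Gy and 13 at photon 15 against 4 Gy on day 6, 1 at proton 4 Gy on day 2, 13 at proton 15 against 4 Gy on day 6, 20 for culture time in photon controls, 1 and 3 for day 6 minus day 2 at photon 4 Gy and proton 15 Gy, and 1 for proton minus photon at 15 Gy on day 6. Of these calls, those at photon 15 Gy on day 2 and for day 6 minus day 2 at photon 4 Gy were higher, and the rest lower. At photon 4, 7 and 15 Gy on day 2 the fit without a filter called 264, 873 and 1064 genes in all. With the filter these were 73, 298 and 547. At photon 15 against 4 Gy on day 6 it was 269 genes without the filter and 16 with it. DESeq2 gave 1 at photon 15 Gy and 4 at photon 15 against 4 Gy on day 6, 1 each at proton 4 and 7 Gy on day 2, and 2 for day 6 minus day 2 at proton 15 Gy. Library size alone gave 4 at proton 7 Gy and 4 at proton 15 against 4 Gy on day 6. With the mouse as a replicate block the counts were 1 and 4 at proton 4 and 7 Gy on day 2, 7 and 4 at proton 7 Gy and 15 against 4 Gy on day 6, and 1 for day 6 minus day 2 at proton 15 Gy, and no other count moved by over 1.5 times. The 6 photon controls alone, an alternative chosen after the data were seen, gave 4 for culture time. The 6 proton controls alone gave 12 of 41 genes tested. With 1 library left out the counts ran from 0 to 1 at photon 7 and 15 Gy and proton 4 Gy on day 2, 0 to 3 at proton 7 Gy and 0 to 2 at proton 15 Gy on day 2, 0 to 6 at photon 15 Gy and 0 to 4 at photon 15 against 4 Gy on day 6, 1 to 16 at proton 7 Gy, 8 to 21 at proton 15 Gy and 1 to 11 at proton 15 against 4 Gy on day 6, 9 to 17 for photon and 4 to 13 for proton culture time, 0 to 2 for day 6 minus day 2 at proton 15 Gy, and 0 to 1 for proton minus photon at 15 Gy on day 6. The cause of these shifts was not tested. Leave-outs of the order of the doses were added after the data were seen.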
